A study of Mus spretus with 12 samples.

Results

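The genes described here encode the proteins of the cytosolic ribosome. They were taken by name, as every array probe whose gene name is Rps or Rpl with a number (with or without a final a or x), or Rpsa, Rplp0, Rplp1 or Rplp2. This gave 76 genes of the 37074 gene names on the array, read by 170 probes on 746 spots. Proteins of the small subunit account for 30 of the genes and those of the large subunit for 46. After a filter on dim probes 160 of the 170 probes were kept, and all 76 genes were among the 18678 genes tested. Of the 76, 73 had a probe well above background on all 12 arrays. The exceptions were Rplp0 and Rpl13a, each without a value on 1 PXDDE array, and Rpl37.

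Liver RNA came from males of SPRET/EiJ, an inbred strain of Mus spretus, aged 22 months after 60 days of feeding. The control group was given a standard diet with corn oil. The DDE group was given that diet with p,p'-DDE, the lasting breakdown product of the insecticide DDT, at 450 mg/kg. The PXDDE group was given the same p,p'-DDE diet, and its drinking water held Pedro Ximenez grape must with 85 mg/L of polyphenols and 31 g/L of glucose and fructose in equal parts. The study's title speaks of protection by the must from liver damage by p,p'-DDE. Each group has 4 one-colour arrays. For the control and must groups the design text counts 4 mice, without a word on pooling. The p-values thus reflect the spread from array to array, and that spread may be technical.

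A ribosome is built from a small subunit, which reads the mRNA, and a large subunit, which joins the amino acids. Each cytosolic ribosomal protein is needed in about the same amount, and their mRNAs are among the most plentiful in any growing or secreting cell, the hepatocyte included. Most of these mRNAs begin with a 5′ terminal oligopyrimidine tract, through which the kinase complex mTORC1 and its target LARP1 govern their translation and stability. In bulk tissue, a lower level can come from less RNA per cell or from fewer cells of a type, which cannot be told apart here.

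The results turn on the size of the change, so the probes of the genes with the largest falls are shown first. Each is printed 5′ to 3′ as the scanner files give it. Capitals mark the longest run of 18 or more bases that the probe shares with a probe carrying another transcript's name, and a probe with no capitals shares no such run.
Rps15a, brightest probe: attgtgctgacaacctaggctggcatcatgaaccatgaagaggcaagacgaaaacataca
Rps15a, dimmest probe: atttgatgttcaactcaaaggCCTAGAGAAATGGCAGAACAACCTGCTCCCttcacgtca
Rpl9, brightest probe: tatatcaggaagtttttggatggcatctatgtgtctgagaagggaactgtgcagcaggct
Rpl9, dimmer probe: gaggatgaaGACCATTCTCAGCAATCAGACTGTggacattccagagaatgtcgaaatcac
Rps12: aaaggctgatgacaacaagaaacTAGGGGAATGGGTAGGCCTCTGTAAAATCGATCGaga
Rps21: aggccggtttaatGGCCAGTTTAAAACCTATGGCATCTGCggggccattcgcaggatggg
Rps23: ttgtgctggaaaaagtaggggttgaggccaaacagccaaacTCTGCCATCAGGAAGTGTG
Rps3: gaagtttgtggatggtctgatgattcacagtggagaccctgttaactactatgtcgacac

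The next set shows genes that were not called in any comparison, Rps2 by its brightest probe and Rpl28 by its dimmest.
Rps2: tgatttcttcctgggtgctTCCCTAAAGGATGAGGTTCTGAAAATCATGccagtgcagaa
Rpl28: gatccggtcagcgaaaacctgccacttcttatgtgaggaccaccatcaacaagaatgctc

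On build mm9, per the scanner files, the Rps15a probes lie at chr7:125252644-125252703 and chr7:125253453-125253512 on the minus strand. The Rpl9 probes lie at chr5:65779821-65779879 and chr5:65782084-65782617 on the minus strand, the Rps12 probe at chr10:23505428-23505711 on the minus strand, and the Rps21 probe at chr2:179992705-179992936 on the plus strand. The Rps23 probe lies at chr13:91063336-91063974 on the plus strand, the Rps3 probe at chr7:106628415-106628474 on the minus strand, the Rps2 probe at chr17:24857583-24857642 and the Rpl28 probe at chr7:4745223-4745719, both on the plus strand. Probes hold 60 bases, so a wider interval means that bases between are skipped, as at an exon junction. That holds for 44 of the kept member probes. A gene annotation was not used here, so exons and untranslated regions are not named. Ribosomal protein genes have many processed copies in mammalian genomes. Of the 170 member probes 65, from 45 genes, share such a run with a probe of another name, up to 50 bases long, and signal from copies cannot be separated from that of the gene on those probes. Runs were sought among the array's probes only, so a probe without one may still match copies elsewhere in the genome. The 95 kept probes without a shared run had a median log2 change of -0.28 in DDE against control, -0.48 in PXDDE against DDE and -0.78 in PXDDE against control. With a shared run the medians were -0.24, -0.48 and -0.74.

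Levels are log2 of the processed signal relative to the array's 75th percentile, and a gene is read by its brightest kept probe. A change is a difference of group means on that scale from 1 limma fit over the 12 arrays. Calls were made at an adjusted p below 0.05 over all 18678 genes, and rose and fell are used for called genes.

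As a whole the ribosomal protein genes were highest in control, lower in DDE and lowest in PXDDE. Their median level was 7.47 ± 0.057 in control, 7.19 ± 0.017 in DDE and 6.73 ± 0.054 in PXDDE (SD, n = 4 arrays each). Per array it ran from 7.42 to 7.55 in control, 7.17 to 7.21 in DDE and 6.66 to 6.80 in PXDDE, so the groups did not overlap. Their share of the summed signal of all tested genes, to which bright probes contribute most, was 5.77% ± 0.079 in control, 4.96% ± 0.090 in DDE and 3.85% ± 0.078 in PXDDE. The lowest control array stood at 5.69%, the DDE arrays between 4.88% and 5.06%, and the highest PXDDE array at 3.92%. The share needs no scaling between arrays. For the small subunit it went from 2.58% to 2.18% and 1.63%, and for the large subunit from 3.19% to 2.78% and 2.22%.

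**Figure D1:**
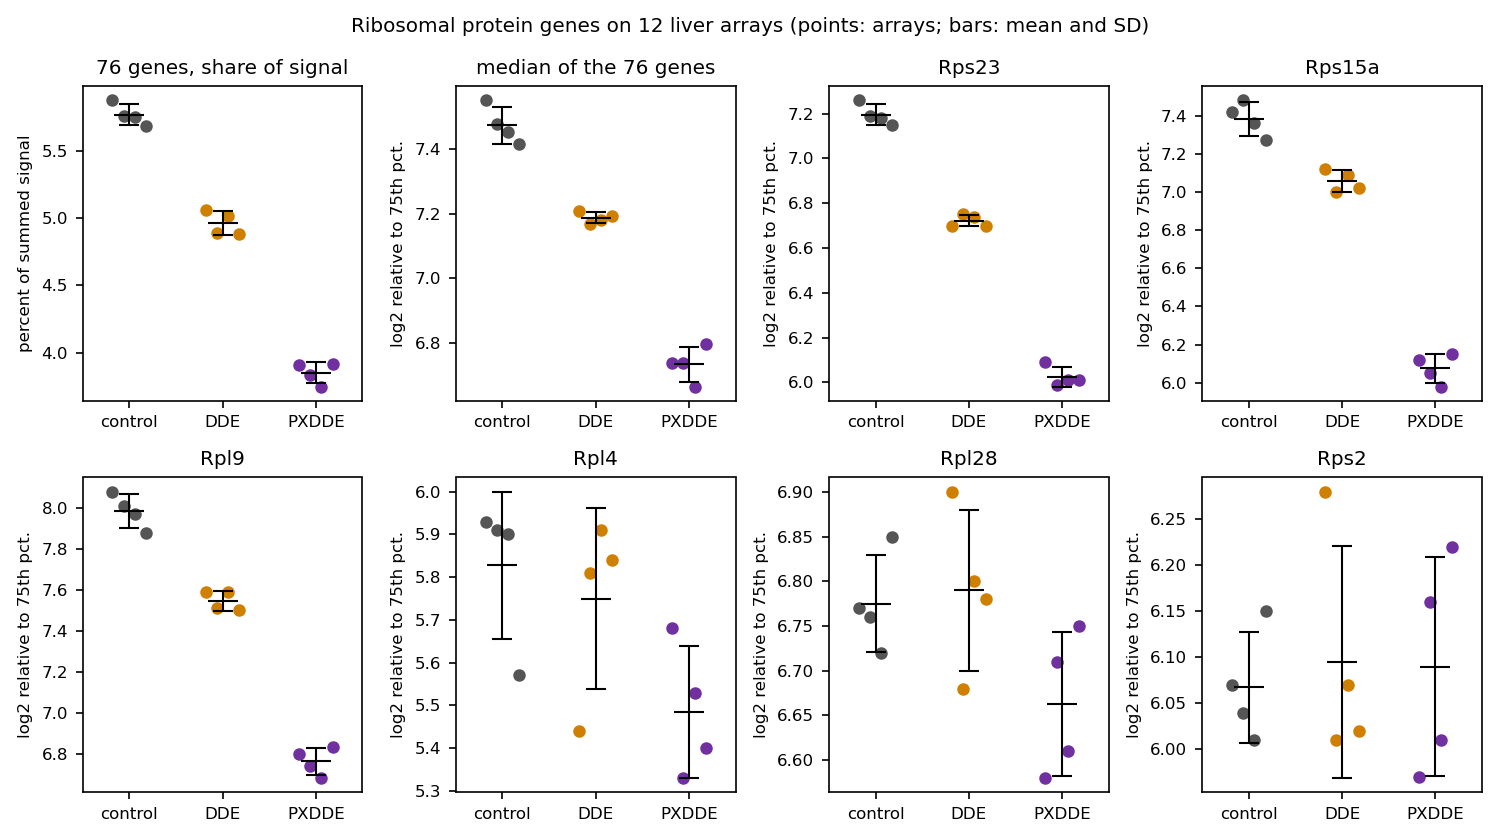
Values of each array in the 3 groups, as points, with the mean and SD of 4 arrays as bars: the share of signal in percent, the median level of the 76 genes, and the levels of 6 genes in log2 relative to the 75th percentile. The groups lie apart for the share, the median, Rps23, Rps15a and Rpl9, and overlap for Rpl4, Rpl28 and Rps2; each panel has its own vertical range.

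The spread behind these values was small. The median SD between arrays of a group was 0.073 for the 76 genes, against 0.11 for all tested genes and 0.072 for other genes at a mean level of 6 or higher. Of the member probes 64 are printed on 10 spots, whose SD within 1 array was 0.043 (median) against 0.069 between arrays of a group for their means. No member spot was saturated.

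The first comparison, DDE against control, addresses what feeding p,p'-DDE changed. Of the 76 genes 58 fell, none rose and 18 were not called. Over all tested genes 26.3% were called lower and 24% higher. The median change of the 76 genes was -0.28, a 1.21-fold lower level, against -0.02 over all tested genes. On the small subunit 27 of 30 genes fell (median -0.30), and on the large subunit 31 of 46 (median -0.26). For 53 of the 76 all DDE arrays lay below all control arrays, as for 24.1% of all tested genes. None was 2-fold lower, as were 3.11% of all tested genes. The count depends on how arrays are scaled. With each array centred on its median, 7 of the 76 were called lower and 8 higher (median -0.05), while the median of all tested genes moved to 0.21 and the share of higher among called genes went from 47.7% to 81.3%. By the deposited values 40 were lower and 2 higher (median -0.14).

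Scaling moved all genes together, and the distance from other genes moved less. The array's bright genes, 1010 genes outside the family with a mean level of 6 or higher, had a median change of -0.08 in this comparison. The median of the 76 genes minus theirs was -0.20 under the 75th percentile, -0.20 with median centring, -0.18 with quantile normalisation and -0.20 in the deposited values. Of those 1010 genes 36.5% were called lower and 24.7% higher, and of the 72 ribosomal protein genes at that level 79.2% and 0%. Within the 3 slides that held both groups, the members' median change was -0.37, -0.28 and -0.26, and 71 to 76 of the 76 were negative. Each slide held a single array of a group, so these values have no replicates.

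**Figure D2:**
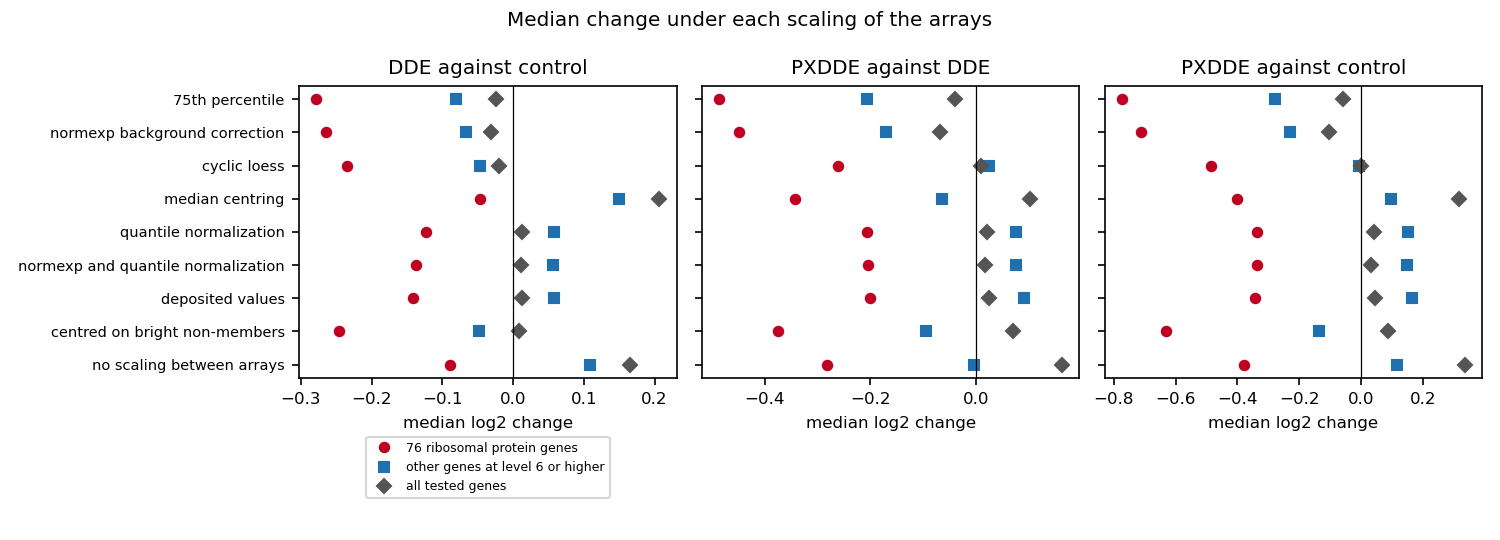
Median log2 change under 9 ways of scaling the arrays (rows) in each comparison, for the 76 ribosomal protein genes, for the 1010 other genes at a mean level of 6 or higher and for all tested genes. The median of the ribosomal protein genes is the lowest in every row. The 3 medians shift together with median centring and with no scaling, but not with quantile normalisation or in the deposited values. In PXDDE against control the other bright genes stood at 0.096 and all tested genes at 0.317 with median centring. With quantile normalisation they stood at 0.152 and 0.043.

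On the small subunit the largest fall by the brightest probes was that of Rps23, a protein of the decoding centre. It stood at 7.26, 7.19, 7.18 and 7.15 in control and at 6.70, 6.75, 6.74 and 6.70 in DDE. The groups do not overlap, and the change was -0.47 ± 0.040 (SE, adjusted p = 2.85e-06), or 1.39-fold lower. Rps3, which lines the mRNA entry channel and also takes part in DNA repair, stood at 7.43, 7.35, 7.30 and 7.40 in control and at 7.09, 6.85, 6.87 and 6.86 in DDE. Its DDE replicate 1 lies above the others but below every control array, and the change was -0.45 ± 0.059 (adjusted p = 8.38e-05). The dimmer kept probe of Rps3 changed by -0.73 and that of Rpsa by -0.57, both more than Rps23. Rps27a, made as a fusion with ubiquitin, fell 1.31-fold. Rpsa, also known as the laminin receptor precursor, fell 1.31-fold as well, and Rps14 1.26-fold. Rps18, often used as a reference gene in quantitative PCR, fell 1.25-fold. Rps6, the target of the S6 kinases, and Rps20, of the subunit's head, both fell 1.18-fold. Rps19, whose loss in humans causes Diamond-Blackfan anaemia, fell 1.16-fold and Rps4x, on the X chromosome, 1.12-fold. With median centring Rps23, Rps3 and Rps27a were still called lower, while the calls of Rpsa, Rps14, Rps18, Rps6, Rps20, Rps19 and Rps4x were lost (adjusted p = 0.064 to 0.916), with changes of 0.013 for Rps19 and 0.062 for Rps4x. That of Rps4x was also lost without control replicate 1, 2 or 3 or DDE replicate 1, 2 or 4 (adjusted p = 0.0545 to 0.0917).

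On the large subunit Rpl9, near the base of the stalk that binds elongation factors, stood at 8.08, 8.01, 7.97 and 7.88 in control and at 7.59, 7.51, 7.59 and 7.50 in DDE. Its change was -0.44 ± 0.054 (SE, adjusted p = 4.93e-05), with no overlap. Rpl38, which some Hox mRNAs need for their translation, fell 1.32-fold, with control between 8.32 and 8.49 and DDE between 7.83 and 8.05. Rpl32 fell 1.29-fold. Rpl5 and Rpl22 both fell 1.27-fold, and Rpl11 fell 1.19-fold. Rpl5 and Rpl11 bind MDM2, together with the 5S ribosomal RNA, when ribosome assembly is disturbed. Rpl3, close to the catalytic centre, and Rpl13a, a usual reference gene of PCR, both fell 1.25-fold, and Rpl41, the smallest ribosomal protein, 1.22-fold. With median centring Rpl9 was still called lower, and the calls of Rpl38, Rpl32, Rpl5, Rpl22, Rpl11, Rpl3, Rpl13a and Rpl41 were lost (adjusted p = 0.0717 to 0.765). Rpl10, which joins the subunit late, was not called (-0.10, adjusted p = 0.123), nor was Rpl4 (-0.08, adjusted p = 0.615). Without DDE replicate 1 Rpl10 was called (-0.13, adjusted p = 0.029). In all, 15 genes of the large subunit and 3 of the small one were not called, with changes from -0.20 to 0.023. Of the 46 members outside the rule for named genes 35 fell, and their changes ran from -0.40 to -0.022.

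The proteins of the P-stalk, Rplp0, Rplp1 and Rplp2, form the arm of the large subunit that recruits elongation factors. Rplp2 was called lower (-0.13, adjusted p = 0.046), but its control arrays (8.50 to 8.63) overlap its DDE arrays (8.36 to 8.54), and 20 of 31 alternatives lost that call, with adjusted p = 0.0565 to 0.123 without any 1 of control replicates 1 to 3, DDE replicates 2 to 4 or PXDDE replicates 1 and 2. Rplp1 was at -0.17 (adjusted p = 0.054, and called at -0.22 without control replicate 4, adjusted p = 0.0118) and Rplp0 at -0.06 (adjusted p = 0.448).

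**Figure D3:**
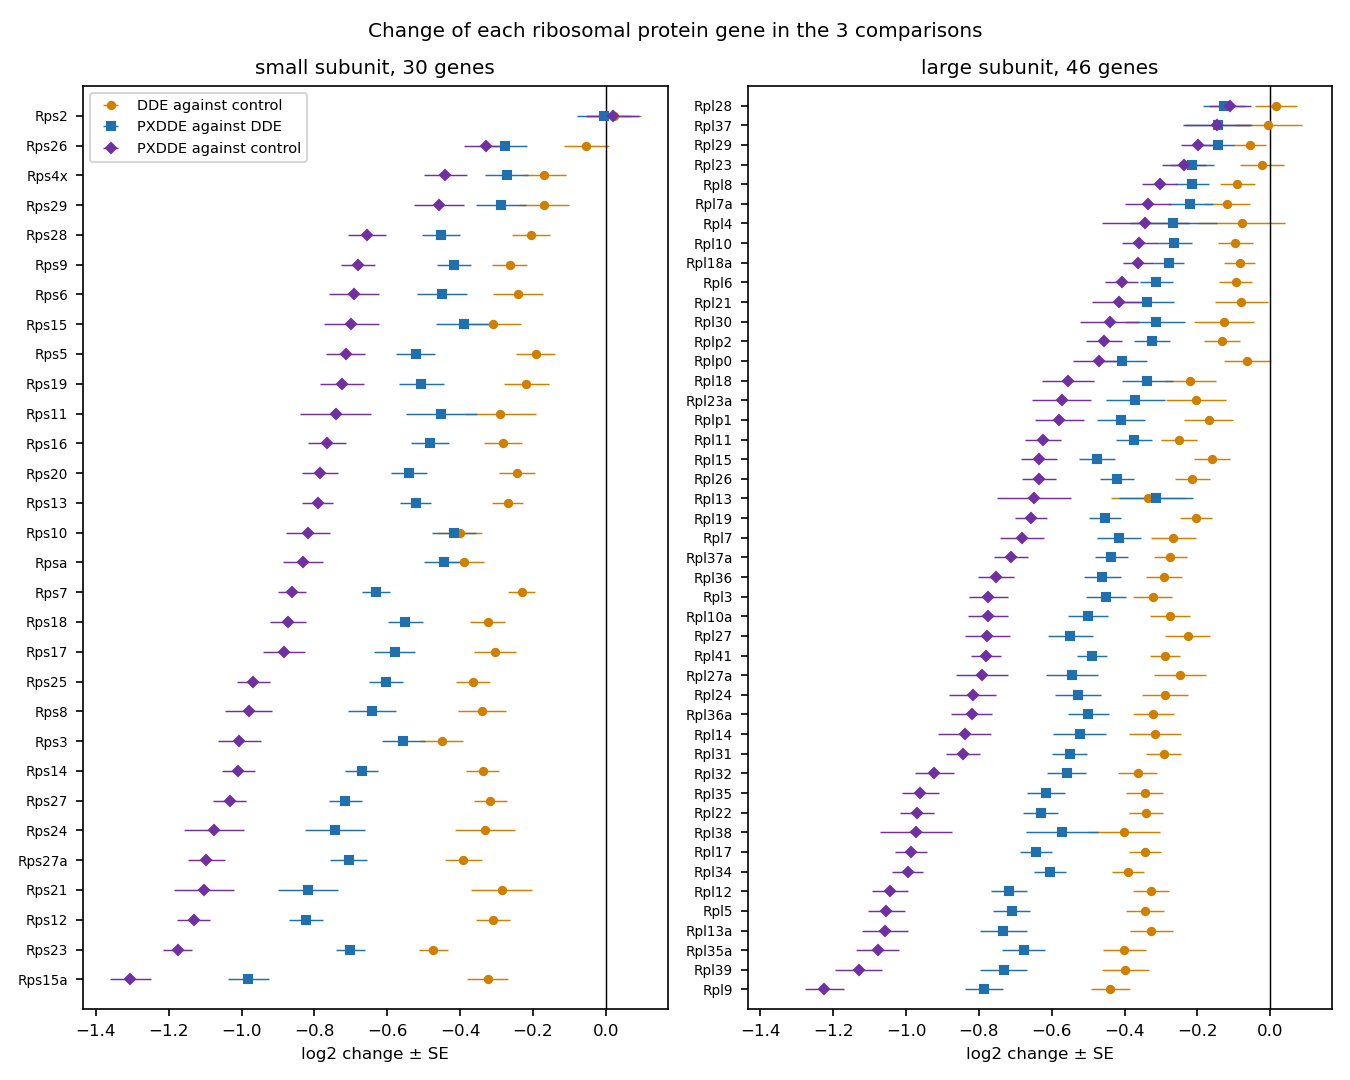
Log2 change of each of the 76 genes with its SE, for the small subunit (left) and the large subunit (right), in DDE against control (circles), PXDDE against DDE (squares) and PXDDE against control (diamonds), sorted by the last. From Rps15a and Rpl9 at the bottom the changes shrink to Rps2 and Rpl28 at the top, which lie near 0.

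The second comparison, PXDDE against DDE, addresses what the must changed in mice on the p,p'-DDE diet. Of the 76 genes 72 fell and none rose, where 29.7% of all tested genes were called lower and 20.2% higher. The median change was -0.49, a 1.40-fold lower level, against -0.04 over all tested genes and -0.21 over the 1010 other bright genes. On the small subunit 29 of 30 fell (median -0.53) and on the large subunit 43 of 46 (median -0.45). For 71 of the 76 all PXDDE arrays lay below all DDE arrays, as for 26.4% of all tested genes. None was 2-fold lower, as were 2.36% of all tested genes. The median of the 76 genes kept its sign under the 6 alternative ways of correcting and scaling the arrays, between -0.45 with normexp background correction and -0.20 in the deposited values, where 52 were lower and 3 higher. With median centring 60 were lower and none higher, and the share of higher among all called genes was 66.3% in place of 40.6%. The distance from the bright genes was -0.28 under the 75th percentile, -0.28 with median centring and -0.29 in the deposited values. Within the 3 slides that held both groups, each with a single array per group, the medians were -0.43, -0.55 and -0.51.

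Rps15a fell most. It stood at 7.12, 7.0, 7.09 and 7.02 in DDE and at 6.12, 6.05, 5.98 and 6.15 in PXDDE. No values overlap, and the change was -0.98 ± 0.057 (SE, adjusted p = 1.28e-07), or 1.98-fold lower. Its other kept probes changed by -0.47 and -0.73, so the size differs between its probes while the direction does not. Rps12, which sits on the subunit's beak, stood at 8.60, 8.49, 8.51 and 8.54 in DDE and at 7.73, 7.66, 7.67 and 7.78 in PXDDE, a change of -0.82 ± 0.046 (adjusted p = 9.88e-08). Rps21 stood between 7.36 and 7.64 in DDE and between 6.45 and 6.84 in PXDDE, and fell 1.76-fold. Rpl9, the largest fall of the large subunit, stood at 6.80, 6.74, 6.68 and 6.83 in PXDDE and was 1.72-fold lower than in DDE (adjusted p = 5.06e-07).

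Further named genes fell in the same range. Rpl13a, with 3 PXDDE arrays, fell 1.66-fold and Rpl5 1.64-fold. Rps23 and Rps27a both fell 1.63-fold, Rps14 1.59-fold and Rpl22 1.55-fold. Rpl38 fell 1.49-fold, Rps3 and Rpl32 1.47-fold, Rps18 1.46-fold and Rps20 1.45-fold. Rps19 fell 1.42-fold, Rpl41 1.40-fold, Rpl3 and Rps6 1.37-fold, Rpsa 1.36-fold and Rpl11 1.30-fold. The smallest called falls among these were those of Rps4x (1.21-fold) and Rpl10 (1.2-fold). Rps4x stood at 0.045 with quantile normalisation and at 0.066 in the deposited values, and Rpl10 at 0.001 in the latter, where none of these was called. All 3 genes of the P-stalk fell, Rplp0 and Rplp1 1.33-fold and Rplp2 1.25-fold, with no overlap between the arrays of the groups and Rplp0 read on 3 PXDDE arrays. With quantile normalisation none of the 3 was called (adjusted p = 0.312 for Rplp0, 0.06 for Rplp1 and 0.0725 for Rplp2), and in the deposited values Rplp1 alone was (-0.14, adjusted p = 0.0485).

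The genes that were not called are few, and 3 of them, Rps2, Rpl28 and Rpl37, are described because of their values. Rps2, at the entry of the mRNA channel and methylated by PRMT3, stood at 6.28, 6.01, 6.07 and 6.02 in DDE and at 5.97, 6.16, 6.01 and 6.22 in PXDDE. The groups overlap throughout, and the change was -0.004 (95% interval -0.17 to 0.16, adjusted p = 0.967). In control it stood at 6.07, 6.04, 6.01 and 6.15. Its other kept probe, which the files place elsewhere on chromosome 17, changed by 0.10, and its change from control to PXDDE was 0.22. Rpl28 stood at 6.77, 6.76, 6.72 and 6.85 in control, at 6.90, 6.68, 6.80 and 6.78 in DDE and at 6.58, 6.71, 6.61 and 6.75 in PXDDE. Its change from DDE to PXDDE was -0.13 (95% interval -0.25 to 0.001, adjusted p = 0.0919), and its other probes changed by -0.14 and -0.08. It was called lower without DDE replicate 2 (-0.16, adjusted p = 0.0417) and with the slide as a block (-0.15, adjusted p = 0.0165).

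Scaling decides the direction printed for both genes. In the deposited values Rps2 was called higher in PXDDE than in DDE (0.32, adjusted p = 0.000988), and so was Rpl28 (0.21, adjusted p = 0.00928). How far these genes lay from the family's median does not change when arrays are scaled by 1 number each, since that shifts every gene alike. Rpl4 varied widely within groups (SD 0.21 in DDE) and changed by -0.27 (adjusted p = 0.0856), with DDE between 5.44 and 5.91 and PXDDE between 5.33 and 5.68. It was called without DDE replicate 1 (-0.37, adjusted p = 0.0132) and without PXDDE replicate 1 (-0.33, adjusted p = 0.0482). Rpl37 has 1 probe, at about the detection limit (-4.33 in DDE and -4.48 in PXDDE) and well above background on 7 of 12 arrays, and changed by -0.14 (adjusted p = 0.219).

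**Figure D4:**
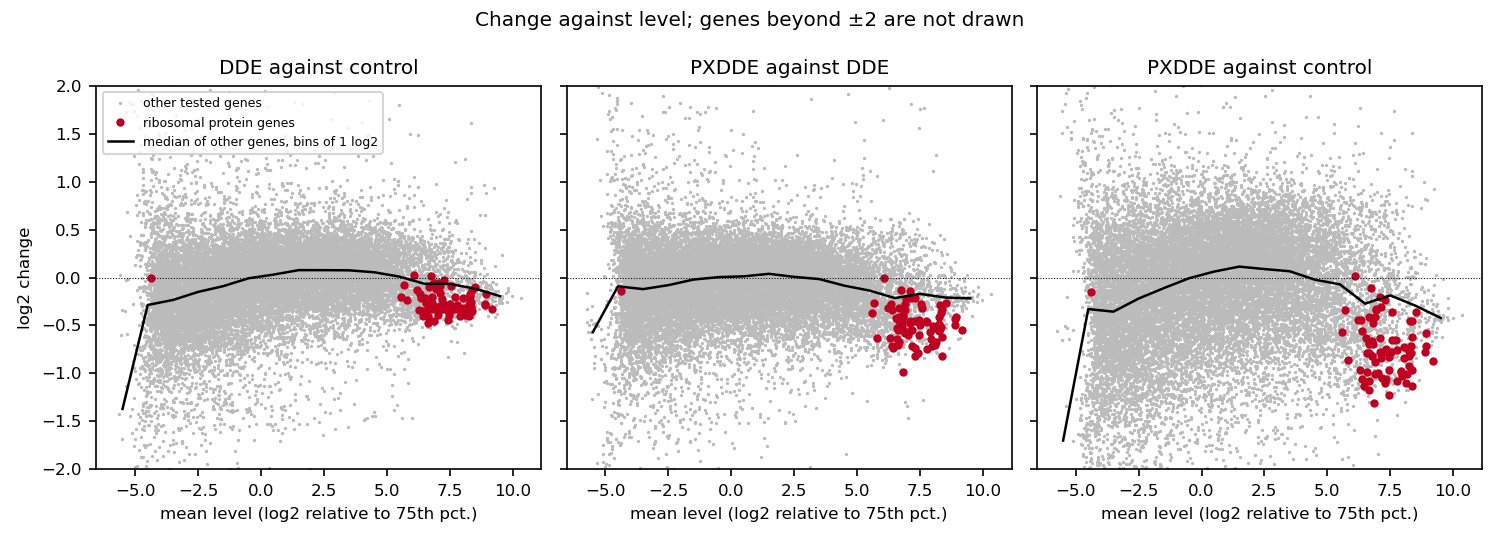
Log2 change against the mean level of each tested gene in the 3 comparisons, with the 76 ribosomal protein genes in red, the other genes in grey and the median of the others in bins of 1 log2 as a line. Most ribosomal protein genes lie below the line in each panel, and the line itself falls at high levels.

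The third comparison, PXDDE against control, holds the sum of both steps. It shares its arrays with the others, so its values are not separate evidence. Of the 76 genes 73 fell and none rose, where 39.3% of all tested genes were called lower and 31.6% higher. The median was -0.77, a 1.71-fold lower level, against -0.06 over all tested genes and -0.28 over the other bright genes. At least a 2-fold fall was seen for 15 of the 76, or 19.7%, against 9.45% of all tested genes. That count and the folds below are those of the 75th percentile, which gave the lowest median of the family among the 9 scalings. Over these scalings the weakest change was -0.848 for Rps15a, -0.762 for Rpl9, -0.738 for Rps12 and -0.72 for Rps23, each short of 2-fold. For 72 of the 76 all PXDDE arrays lay below all control arrays, as for 36.3% of all tested genes. On the small subunit 9 of 30 reached a 2-fold fall, and on the large subunit 6 of 46. The share of higher among all called genes was 73.1% with median centring in place of 44.5%, and then 56 of the 76 were lower and 4 higher. In the deposited values 57 were lower and 5 higher (median -0.34). The distance from the bright genes was -0.50 under the 75th percentile and -0.51 in the deposited values.

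Rps15a was 2.47-fold lower in PXDDE than in control (adjusted p = 4.15e-09), from 7.42, 7.48, 7.36 and 7.27 in control. That is a change of -1.31 by its brightest probe, and its other kept probes changed by -0.90 and -1.12. Rpl9 was 2.34-fold lower (adjusted p = 4.43e-09), Rps23 2.26-fold (adjusted p = 5.44e-10) and Rps12 2.19-fold (adjusted p = 2.4e-09). Rps23 stood at 6.09, 5.99, 6.01 and 6.01 in PXDDE, below every array of the other groups. Rps21 was 2.15-fold lower, Rps27a 2.14-fold, Rpl5 and Rpl13a 2.08-fold, and Rps3 and Rps14 2.01-fold. Rpl22 and Rpl38 were 1.96-fold lower and Rpl32 1.90-fold. Rps18 was 1.83-fold lower, Rpsa 1.78-fold, Rpl41 and Rps20 1.72-fold, Rpl3 1.71-fold, Rps19 1.65-fold, Rps6 1.61-fold and Rpl11 1.54-fold. The P-stalk fell less than the median of the family, with Rplp1 at 1.49-fold, Rplp0 at 1.39-fold and Rplp2 at 1.37-fold. In the deposited values and with median centring the calls of Rplp0 and Rplp2 were lost (adjusted p = 0.116 to 0.785). Rps4x was 1.36-fold lower and Rpl10 1.28-fold. Rpl4 was 1.27-fold lower (adjusted p = 0.0227), with overlapping arrays, and 12 of 31 alternatives lost that call, among them those without control replicate 1, 2 or 3 or PXDDE replicate 2 or 4 (adjusted p = 0.0552 to 0.066). The 46 members outside the rule for named genes all fell in PXDDE, with changes from -0.74 to -0.14 against DDE and from -1.13 to -0.20 against control. The genes not called were Rps2 (0.019, adjusted p = 0.827), Rpl28 (-0.11, adjusted p = 0.11) and Rpl37 (-0.15, adjusted p = 0.17). Rps2 was called higher in PXDDE than in control under 6 of the 9 scalings, by up to 0.45 (0.42 in the deposited values, adjusted p = 6.21e-05), and Rpl28 stood at 0.41 in the deposited values (adjusted p = 3.93e-05).

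Differences in size between the genes were repeated by other probes of the same gene. At the level of probes 123 of 160 were lower in DDE than in control, 151 in PXDDE than in DDE and 153 in PXDDE than in control, and none was called higher. Over all kept probes the shares lower were 24.5%, 27.1% and 37.2%, and the shares higher 23%, 18.6% and 31.3%. For the 55 genes with several kept probes, the change of the next brightest probe followed that of the brightest one, with Pearson's r across genes of 0.83, 0.85 and 0.89. The probes of a gene are read on the same arrays and some overlap, so r describes these arrays only. The median difference between both probes was 0.048, 0.044 and 0.067, against an SD between genes of 0.12, 0.19 and 0.29. No gene had probes called in opposite directions. Genes singled out for the widest gap between their probes were Rpl6 in DDE against control and in PXDDE against control, and Rps9 in PXDDE against DDE (0.516). A dim probe of Rpl6 changed by -0.61 in DDE against control and the brightest by -0.10. A probe of Rps20 with a control mean of -1.79, against 8.66 for the gene's brightest, changed by 0.16 in DDE against control where the others changed by -0.24 and -0.23.

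**Figure D5:**
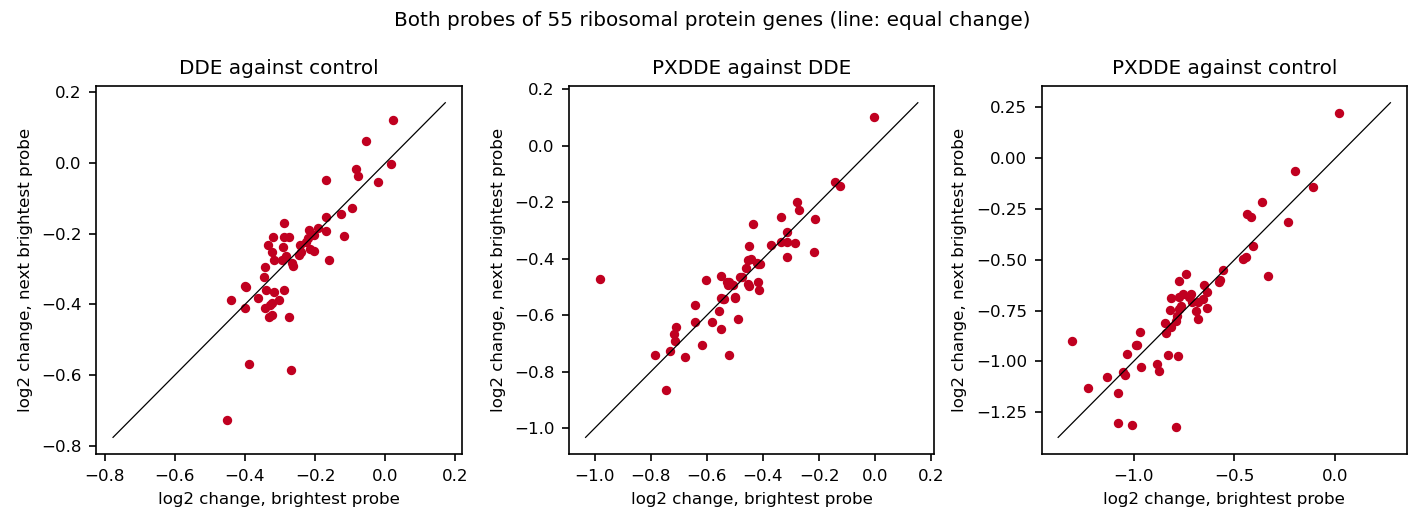
Log2 change of the next brightest probe against that of the brightest probe for 55 ribosomal protein genes in the 3 comparisons, with a line of equal change. Most genes lie along the line, and Rps15a is the point far above it in PXDDE against DDE, at -0.98 for the brightest and -0.47 for the next probe.

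Related genes come from lists fixed by name. In what follows, in DDE means DDE against control, and with the must means PXDDE against DDE. Of all tested genes 26.3% fell and 24% rose in DDE, and 29.7% and 20.2% with the must. From control to PXDDE 39.3% fell and 31.6% rose. Of 14 paralogs and fusion genes, 9 were tested, and 7 fell in DDE against control, 6 in PXDDE against DDE and 8 in PXDDE against control, with none higher. The medians were -0.25, -0.25 and -0.55. Rpl22l1, the paralog of Rpl22, was at 6.62 ± 0.072 in control, 6.13 ± 0.068 in DDE and 5.27 ± 0.10 in PXDDE (SD, n = 4), which is 2.54-fold lower in PXDDE than in control. Rps27l, a p53 target and paralog of Rps27, was 2.08-fold lower, and Gnb2l1, which encodes the ribosome-bound scaffold RACK1, 1.87-fold. With median centring 1 of the 9 was called higher and 3 lower in DDE against control.

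Translation factors were divided. Of 14 elongation factors and their partners, 2 rose and 4 fell in DDE, and 2 rose and 7 fell with the must (medians 0.024 and -0.19). In DDE 28.6% of this list was lower, close to the 26.3% of all tested genes. Those that fell with the smallest p in DDE were Tpt1, Eef1b2 and Naca. Eef1a1 (-0.08), Eef1g (0.04) and Eef2 (0.22) were not called in DDE. Eef1b2, an exchange factor of elongation factor 1, went from 7.52 ± 0.078 in control to 7.27 ± 0.043 in DDE and 6.61 ± 0.067 in PXDDE. Naca, which binds emerging chains at the ribosome, went from 6.56 ± 0.062 to 6.33 ± 0.064 and 5.82 ± 0.078. Of 34 initiation factors 11 rose and 2 fell in DDE, and 4 rose and 12 fell with the must (medians 0.013 and -0.05). Eif4g1, the scaffold of the cap complex, rose 1.37-fold in DDE and Eif3b 1.27-fold, while Eif3h fell 1.36-fold with the must. A dimmer probe of Eif4g1 was called lower in DDE (-0.45). The medians of both lists changed sign between scalings. With median centring 9 elongation and 25 initiation genes were higher and none lower in DDE against control.

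Genes for assembling the ribosome moved in both directions. Of 44 tested of 46 listed, 14 rose and 1 fell in DDE, 8 rose and 15 fell with the must, and 18 rose and 13 fell from control to PXDDE (medians 0.085, -0.04 and 0.020). Polr1a, the largest subunit of RNA polymerase I, was at 0.54 ± 0.032, 0.94 ± 0.15 and 1.29 ± 0.043 and rose 1.32-fold in DDE and 1.68-fold from control to PXDDE. With the must the 3 called genes of this list with the smallest p all fell (-0.51 to -0.35). With median centring 33 of the 44 were higher and none lower in DDE. Of 19 tested genes of mTORC1 and its control of these mRNAs, 10 rose and 2 fell in DDE, and 7 rose and 3 fell with the must (medians 0.21 and 0.14, and above 0 under each of 8 further scalings). Mtor, the kinase, rose 1.53-fold from control to PXDDE and Larp1, which binds the terminal tract, 1.57-fold. Rheb, the small GTPase that activates the kinase, fell 1.69-fold in DDE and 2.32-fold from control to PXDDE. With its dimmest probe Rheb was called neither in DDE (0.093, adjusted p = 0.422) nor from control to PXDDE (-0.08, adjusted p = 0.429).

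Mitochondrial ribosomal proteins are encoded in the nucleus and serve the ribosome inside mitochondria. Of 77 tested genes 26 fell and 10 rose in DDE (33.8% lower, median -0.06), where 26.3% of all genes were lower. With the must 53 fell and 3 rose (median -0.25), and from control to PXDDE 55 fell and 13 rose (median -0.33). The difference between both families was not tested. Mrpl33 went from 7.23 ± 0.032 to 6.78 ± 0.053 and 6.20 ± 0.053, a 2.04-fold fall from control to PXDDE, and Mrpl20 fell 1.66-fold. With median centring 40 of the 77 were higher and 2 lower in DDE, and their median from control to PXDDE turned to 0.042.

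Markers of cell types also changed, in both directions. The counts and sums below are those of the 75th percentile only. Median centring raised the changes of all genes together. The median of all tested genes was then 0.207 in place of -0.024 in DDE, and 0.103 in place of -0.04 with the must. Directions of changes as small as the hepatocyte medians can thus depend on the scaling. Of the hepatocyte markers 14 of 15 were tested, 13 of them well above background on all 12 arrays, and 1 rose and 6 fell in DDE, and 1 rose and 9 fell with the must (medians -0.14 and -0.16). Of 8 tested markers of B and plasma cells 6 fell in DDE and 4 with the must, and their summed level, in multiples of the 75th percentile, was 7.52 to 7.67 in control, 3.47 to 3.85 in DDE and 2.24 to 3.12 in PXDDE. Of 11 markers of T and NK cells 9 and 5 fell (54.3 to 57.6, 24.6 to 41.8 and 25.1 to 27.7). Of 13 markers of Kupffer cells 10 and 10 fell (104 to 109, 82.4 to 87.6 and 61.8 to 65.5), and of 9 markers of neutrophils 5 and 9 (102 to 104, 76.7 to 81.6 and 33.6 to 39). Muscle markers fell in 10 and 9 of 10 (440 to 453, 166 to 181 and 123 to 131). Pancreatic acinar markers fell in 10 of 12 in DDE and rose in 12 of 12 with the must (663 to 714, 500 to 566 and 2430 to 2490). Adrenal markers fell in 8 of 8 in DDE and rose in 8 of 8 with the must (27.1 to 29.2, 3.54 to 3.68 and 45.3 to 49.9), and 6 of 8 were higher in PXDDE than in control. Of 8 adipocyte markers 1 rose and 5 fell in DDE, and 4 rose and 1 fell with the must. Of 8 tested markers of dividing cells 2 rose and none fell in DDE, and 4 fell with the must. Of 6 tested erythroid markers 2 rose and none fell in DDE, and 4 fell with the must. The part of these cell types in the change of the ribosomal protein genes was not tested.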

How the data were processed

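Total liver RNA was labelled with Cy3 and hybridised to one-colour Agilent arrays, per the labels. The deposited scanner files give an intensity per spot, and per the file headers their processed signal was background-subtracted and detrended. Named in the submitters' processing notes, without saying what each did, are RMA, limma and Agilent Feature Extraction 11.5.1.1. The deposited value table is on a log2 scale, judged by setting each of its columns against the log2 processed signal of the same array (correlation 0.995 to 0.996 across spots, column medians of 5.32 to 5.35, no sign of centred genes or a turned direction). How it was made is not given in the sources used here.

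The values are log2 of the processed signal minus that of the array's 75th percentile over 59305 spots. Control spots (3671) and outlier spots (102 to 177 per array) were left out, and spots of 1 probe were averaged. A probe was kept if every array of some group had it well above background (27098 of 56605), and the brightest kept probe stands for its gene. Choosing it, the shares of signal and the marker sums set probes beside each other. The 75th percentile was 535.1 ± 32.2 in control, 610.8 ± 46.9 in DDE and 702.2 ± 7.62 in PXDDE (SD, n = 4), and between 50.1% and 52.0% of spots were well above background. The number of arrays limits the precision.

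Genes were tested with limma 3.58.1 in R 4.3.3, in 1 fit with the group as the only term and 9 residual degrees of freedom, then eBayes and Benjamini-Hochberg adjustment over 18678 genes. The fit was tested on simulated data. The 3 comparisons and the alternatives are those of the closing section. The arrays lay on 5 slides, each its own scan. Members and lists were chosen with earlier results of these data known. Genes named in any case were 22 members fixed by name, the 4 largest called falls (and rises, of which there were none) per comparison and the members not called in the comparisons with PXDDE. In the related lists the 3 called genes with the smallest p per comparison could be named, and the text names some of these, chosen after their values were seen. Names and mm9 coordinates are those of the scanner files. The array was made for laboratory mice, and its match to Mus spretus sequence was not examined.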

Additional observations from a re-analysis of the deposited data

Results flagged for a closer look

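In each group of 4 arrays, the named genes and both family values were searched for an array whose gap to the nearest other exceeds Dixon's 95% limit of the group's range. Of 94 such groups 6 held one, where chance gives about 1 in 20. Rpl4 stood at 5.57 on control replicate 4, with the other control arrays between 5.90 and 5.93. Rplp1 stood at 8.71 on PXDDE replicate 1, the others between 8.56 and 8.58. Rps18 stood at 9.68 on control replicate 1, the others at 9.55 to 9.56. Rps19 stood at 8.28 on control replicate 3, the others at 8.36 to 8.37, and also at 8.28 on DDE replicate 1, the others at 8.06 to 8.09. Rps3 stood at 7.09 on DDE replicate 1, the others between 6.85 and 6.87. No array was set apart for the median level of the family or for its share of the signal.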

How the results depend on the processing

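Scaling between arrays moved the results most. In DDE against control, median centring gave 7 members lower and 8 higher (median -0.047), no scaling 10 and 2 (-0.089), quantile normalisation 34 and 4 (-0.12), normexp with quantile normalisation a median of -0.14 with 2 higher, the deposited values -0.14 with 2 higher, and cyclic loess 1 higher. In PXDDE against DDE the medians were -0.34 with median centring, -0.21 with quantile normalisation, -0.21 (-0.205) with normexp and quantile normalisation, -0.20 in the deposited values (3 higher in each of the last 3), -0.26 with cyclic loess, -0.28 with no scaling (1 higher) and -0.38 when arrays were centred on the bright genes outside the family. In PXDDE against control they were -0.40 with median centring (4 higher), -0.34 with quantile normalisation (-0.335, 7 higher), -0.34 with normexp and quantile normalisation (5 higher), -0.34 in the deposited values (5 higher), -0.49 with cyclic loess (2 higher), -0.71 with normexp, -0.38 with no scaling (4 higher) and -0.63 when centred on the bright genes. Within slide 1 the median in DDE against control was -0.37, and within slide 2 that in PXDDE against control was -0.71, each from a single array per group. No scaling, centring on the bright genes and the use of probes without a shared run alone were chosen after seeing the data. Under the 75th percentile and these 8 other scalings, 7, 49 and 55 members were called lower in every one, and 8, 3 and 7 were called higher in at least 1.

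Leaving out each array in turn, 53 to 61 members were lower in DDE against control (median -0.30 to -0.25), 70 to 73 in PXDDE against DDE (-0.51 to -0.46) and 72 to 73 in PXDDE against control (-0.79 to -0.74). A check gave no sign that replicate numbers pair the arrays (1 of 12 pairs of same-numbered arrays correlated above 0.1, range -0.37 to 0.13). Low correlations cannot show that the arrays were unpaired. With the replicate block 57, 72 and 73 members were lower; in DDE against control Rplp1 was then called (adjusted p = 0.0455) and Rplp2 was not (0.0641). With probes that share no run, 58 members remained to be tested, and 46, 55 and 55 were lower.

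Some named genes turned sign where 1 of both settings made a call, and the cause was not tested. In DDE against control these were, with median centring, Rpl37 (0.23), Rplp2 (0.099), Rps19 (0.013), Rps4x (0.062) and Eif3h (0.14), with quantile normalisation Rpl37 (0.23) and Rplp2 (0.043), with cyclic loess Rpl37 (0.25), in the deposited values Rpl37 (0.32), and with no scaling Rplp2 (0.058) and Rps4x (0.021). With the dimmest probe Rps20 (0.16, also without shared runs), Eif4g1 (-0.45) and Rheb (0.093) turned. In PXDDE against DDE they were, with quantile normalisation, Rpl28 (0.17), Rps2 (0.33, 0.325) and Rps4x (0.045), with normexp and quantile normalisation Rpl28 (0.18), Rps2 (0.33) and Rps4x (0.056), in the deposited values Rpl10 (0.001), Rpl28 (0.21), Rps2 (0.32) and Rps4x (0.066), with cyclic loess Rpl10 (0.002), and with no scaling Rps2 (0.20). In PXDDE against control they were, with median centring, Rpl10 (0.015), Rpl28 (0.26), Rpl37 (0.23) and Rpl4 (0.031), with no scaling Rpl10 (0.035), Rpl28 (0.28), Rpl37 (0.25) and Rpl4 (0.051), with quantile normalisation Rpl28 (0.36), Rpl37 (0.23), Rplp0 (0.023) and Rps4x (0.015), with normexp and quantile normalisation Rpl28 (0.36), Rplp0 (0.026) and Rps4x (0.051), in the deposited values Rpl10 (0.011), Rpl28 (0.41) and Rps4x (0.062), with cyclic loess Rpl37 (0.23), and with the dimmest probe Eif4g1 (-0.28). Over all named genes and alternatives 47 values turned sign in this way, a further 143 lost and 34 gained a call with the sign kept, and 3925 did none of these. Probes near background, as that of Rpl37, have the least certain values.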
